A study of Homo sapiens with 4 samples.

Results

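The matrix metalloproteinases described here are 10 genes chosen by name, MMP1, MMP2, MMP3, MMP7, MMP9, MMP10, MMP11, MMP13, MMP14 and MMP24. Every probe set that the PrimeView array annotation pairs with exactly 1 of these symbols was read, which gave 26 of the 49293 probe sets and 10 of the 18132 genes measured. The RNA came from Hs578T, an established human triple-negative breast cancer line with mesenchymal features. It was hybridised to 4 arrays, 2 labelled ELK3 knockdown (replicates 1 and 5) and 2 labelled sh control (replicates 1 and 2). Knockdown cells had been transduced with shRNA lentivirus against human ELK3 in the presence of protamine sulfate and kept as stable lines, and the sequence carried by the control vector is not given in the sources used here. Both groups were grown in DMEM with fetal bovine serum, penicillin-streptomycin and insulin. The labels leave unstated what sets one replicate number apart from another (construct, clone or culture), so p-values measure the spread between these arrays, which may be technical.

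Matrix metalloproteinases are zinc-dependent endopeptidases that cut collagens, laminins, fibronectin and many cell surface proteins. They are made as inactive precursors in which a cysteine of the prodomain blocks the catalytic zinc, and removal of the prodomain by plasmin, by furin-like convertases or by another metalloproteinase switches them on. Their output is set largely at transcription, often through AP-1 and ETS sites near the start of the gene, and tissue inhibitors of metalloproteinases (TIMPs) block the active enzymes. In breast tumours they are made by fibroblasts and by cancer cells with mesenchymal features, and are known for clearing collagen ahead of invading cells.

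The 2 kinds of array stood far apart across the whole transcriptome. Signals correlated at r = 0.996 between the knockdown arrays and at 0.998 between the control arrays, against 0.902 to 0.904 between arrays of different groups, over probe sets that are not independent replicates. ELK3, an ETS family transcription factor and the gene targeted, had signals of 8.09 and 7.92 in the knockdown arrays, against 10.05 and 10.07 in the control arrays. Of all 18132 genes 21.3% were lower and 29.5% higher at a limma adjusted p under 0.05, the shares beside each marker count below. Of 10 mesenchymal markers 10 were lower in the knockdown arrays, with a median log2 change of -6.57. Their summed log2 signal was between 78.4 and 79.7 in the knockdown arrays and between 131.0 and 131.6 in the control arrays, and COL1A2, CDH11, THY1, AXL and TGFBI lay between 3.57 and 5.84 in the knockdown arrays, below the median of all values (6.78). Of 8 epithelial markers, 3 keratins (KRT8, KRT18 and KRT19) rose and 5 did not pass, with sums of 62.7 to 64.9 in the knockdown arrays against 49.6 to 49.8 in the control arrays. Among 6 neuronal markers UCHL1 (8.56) and NEFL rose and TUBB3 fell, with sums of 53.0 to 53.2 against 44.8 to 45.5 in the control arrays. Of 5 immune markers 1 fell, with sums of 24.8 to 25.04 in the knockdown arrays against 25.9 to 26.1 in the control arrays. Of 4 endothelial markers 2 fell, with sums of 23.5 to 23.8 against 25.1 to 25.2 in the control arrays. Of the 10 mesenchymal markers COL1A2, CDH11, THY1, AXL and TGFBI thus went against the mesenchymal features of the labelled line in the knockdown arrays. The other 5 were lower too but stayed above the median of all values. VIM stayed bright (13.05 and 13.20, against 14.30 and 14.27 in the control arrays). In the knockdown arrays SPARC (11.02 and 11.12), CAV1 (10.94 and 11.32) and CDH2 (10.67 and 10.76) stayed bright too, and FN1 had 8.21 and 7.56. No value here shows that the cells of the 2 groups differ in ELK3 alone. Each difference below therefore compares the arrays labelled knockdown with those labelled control, and an effect of ELK3 cannot be told apart from any other difference between these cells. The part of the marker shifts in the metalloproteinase results was not tested. In such bulk RNA, fewer cells of a type and less RNA per cell cannot be told apart.

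The knockdown arrays held much less signal for the collagen- and matrix-degrading enzymes MMP3, MMP2 and MMP14, each over 18-fold lower than in the control arrays, and 2.56-fold and 2.06-fold less for the collagenases MMP13 and MMP1. MMP7 was lower by a small margin, and MMP9, MMP10, MMP11 and MMP24 did not pass the test. In all, 6 of the 10 genes were lower and 0 were higher at a limma adjusted p under 0.05, and at an unadjusted p under 0.05 the counts were 6 lower and 1 higher. Across all 18132 genes 21.3% were lower and 29.5% higher by the same rule, 50.8% in all. With the study's own cut-offs, over 1.5-fold at an unadjusted p under 0.05, 5 of the 10 were lower and 0 higher, against 12.6% and 19.1% of all genes. A fall of more than 2-fold that passed was found for 5 of the 10 genes, against 7.51% of all genes. The median log2 change of the 10 was -0.68, beside -0.01 for all genes. The 10 genes were chosen with results of these arrays known, so these shares describe the list.

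**Figure D1:**
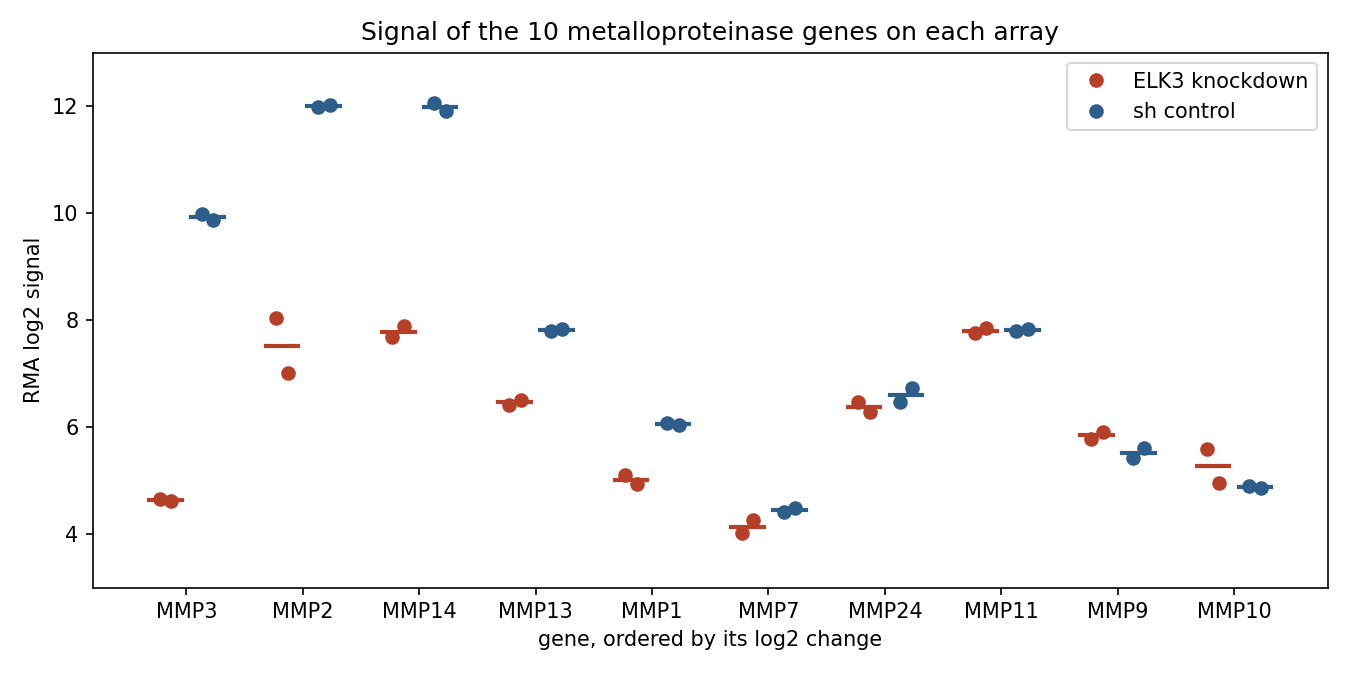
Signal of each of the 10 genes on each array (RMA log2 signal, vertical axis), with the ELK3 knockdown arrays left of the sh control arrays for each gene. Points are single arrays and bars are group means of 2 arrays. The groups stand far apart for MMP3, MMP2 and MMP14, and the knockdown arrays stand apart from each other for MMP2 and MMP10. Heights are to be compared within a gene, since each gene is read by its own probes.

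Of the stromelysins, which share a broad range of matrix substrates, MMP3 fell and MMP10 did not pass. MMP3 (stromelysin-1) cuts proteoglycans, laminin and fibronectin and activates other metalloproteinases such as pro-MMP1. Its signal was 4.66 and 4.63 in the knockdown arrays, against 9.99 and 9.87 in the control arrays. MMP3 averaged 4.64 ± 0.021 in knockdown cells and 9.93 ± 0.085 in control cells (SD, n = 2 each), a 39.0-fold fall (log2 change -5.28 with an SE of 0.11, adjusted p = 1.92e-07 from limma). Its knockdown values sat below the lower quartiles of their arrays (4.98 and 5.01), where the floor of an array limits how far a fold can go. It was the 60th largest fall of all 18132 genes. MMP3 is read by a single probe set, whose name marks probes shared by several transcripts.

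MMP10 (stromelysin-2), a close relative of MMP3 with similar substrates, had signals of 5.59 and 4.97 in the knockdown arrays, against 4.89 and 4.87 in the control arrays. Knockdown replicate 1 alone was high, while replicate 5 was within 0.10 of both control arrays. The difference of 0.40 had a 95% interval from -0.06 to 0.86 and did not pass (adjusted p = 0.136). Leaving out knockdown replicate 5 gave 0.71, which passed, and leaving out replicate 1 gave 0.08, which did not. Here and wherever an array is left out, the group that keeps 1 array is assumed to vary like the other. The spread then comes from 1 pair of arrays and from limma's moderation over all genes, so calls in such fits are weak evidence. MMP11 (stromelysin-3), an enzyme first found in the stroma of breast carcinomas and activated inside the cell by furin, had a brighter probe set with 7.76 and 7.85 in the knockdown arrays, against 7.80 and 7.84 in the control arrays. These values overlapped, with a difference of -0.02 and a 95% interval from -0.25 to 0.22. The other MMP11 probe set had 7.47 and 7.48 in the knockdown arrays, against 6.91 and 6.67 in the control arrays. It passed as higher by 0.68 (adjusted p = 0.00271 over all probe sets), so the direction for MMP11 depends on the probe set, and the mean of both gave 0.33 (adjusted p = 0.0132).

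Of the gelatinases, which digest denatured collagen and the type IV collagen of basement membranes, MMP2 fell and MMP9 did not pass. MMP2 (gelatinase A) had signals of 8.04 and 7.005 in the knockdown arrays, against 11.99 and 12.02 in the control arrays. Both knockdown arrays were below both controls, and replicate 1 was higher than replicate 5. MMP2 averaged 7.52 ± 0.73 in knockdown cells and 12.00 ± 0.025 in control cells (SD, n = 2 each), or 22.3-fold lower (log2 change -4.48, SE 0.29, adjusted p = 1.59e-05). The log2 change was -4.999 without knockdown replicate 1 and -3.96 without knockdown replicate 5. Only 0.205% of all probe sets differed more between the 2 knockdown arrays than this MMP2 probe set, which differed by 1.04. The other 3 MMP2 probe sets differed between the knockdown arrays by 0.67, 0.35 and -0.02 (replicate 1 minus replicate 5), and their log2 changes lay between -4.05 and -4.48. Thus 4 of 4 MMP2 probe sets passed as lower, whatever the gap between the knockdown arrays.

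MMP9 (gelatinase B), the gelatinase best known from neutrophils and macrophages, had signals of 5.79 and 5.92 in the knockdown arrays, against 5.42 and 5.62 in the control arrays. The groups did not overlap, as was so for 75.3% of all genes. The difference was 0.33, with a 95% interval from 0.05 to 0.62 and an adjusted p = 0.0539, just short of the threshold. All 4 values lay below the median of all values. It passed as higher with the mean of probe sets (adjusted p = 0.0345), where its own reading is unchanged and only values of other genes differ. It also passed without the intensity trend (0.0392) and with quantile normalization (0.0373). With an array left out the difference lay between 0.24 and 0.43, and it passed without knockdown replicate 1 or control replicate 2, under the assumption given for MMP10. With its single probe set, MMP9 has no other reading on these arrays.

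Among the membrane-type enzymes, MMP14 (MT1-MMP) cuts fibrillar collagen at the cell surface and activates pro-MMP2 in a complex with TIMP2. Its signal was 7.68 and 7.89 in the knockdown arrays, against 12.07 and 11.92 in the control arrays. MMP14 averaged 7.78 ± 0.15 in knockdown cells and 12.00 ± 0.10 in control cells (SD, n = 2 each), an 18.5-fold fall (log2 change -4.21 with an SE of 0.10, adjusted p = 2.30e-07). The arrays of each group lay within 0.21 of each other, so the fall was many times the spread between replicates. All 4 MMP14 probe sets passed as lower, by log2 changes from -2.79 to -4.21, and their mean gave -3.50 (adjusted p = 1.82e-06). MMP2 and its activator MMP14 thus fell together, at the 106th and 127th largest falls of all genes.

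MMP24 (MT5-MMP), a membrane-type enzyme known mainly from neurons, where it cuts N-cadherin, had signals of 6.47 and 6.29 in the knockdown arrays, against 6.46 and 6.73 in the control arrays. These values overlapped, and the difference of -0.22 (95% interval -0.55 to 0.11, adjusted p = 0.234) did not pass. The other MMP24 probe set had 4.60 and 4.84 in the knockdown arrays, against 5.02 and 5.12 in the control arrays. It passed as lower by a small margin (log2 change -0.35, adjusted p = 0.0436 over all probe sets), and not without knockdown replicate 1 (-0.23) or either control replicate (-0.41 without replicate 1 and -0.30 without replicate 2). The mean of both probe sets passed at -0.29 (adjusted p = 0.0461).

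The collagenases cut native fibrillar collagen. MMP13 (collagenase-3), which prefers type II collagen, had signals of 6.41 and 6.52 in the knockdown arrays, against 7.80 and 7.84 in the control arrays. It averaged 6.46 ± 0.078 in knockdown cells and 7.82 ± 0.022 in control cells (SD, n = 2 each), or 2.56-fold lower (log2 change -1.36, SE 0.11, adjusted p = 4.03e-05). The size of its fall differed widely between its probe sets. Of 5 probe sets 4 passed as lower, by log2 changes from -1.13 to -2.63, and the 5th had 3.53 and 3.53 in the knockdown arrays, against 3.52 and 3.48 in the control arrays. That probe set lay at the dim end of every array and did not pass (0.03, 95% interval -0.13 to 0.19).

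MMP1 (interstitial collagenase), which cuts types I, II and III collagen, had signals of 5.10 and 4.94 in the knockdown arrays, against 6.08 and 6.04 in the control arrays. It averaged 5.02 ± 0.12 in knockdown cells and 6.06 ± 0.030 in control cells (SD, n = 2 each), or 2.06-fold lower (log2 change -1.04, SE 0.11, adjusted p = 1.80e-04). Its other probe set gave a log2 change of -1.23. Both MMP1 readings lay below the median of all values in the control arrays as well, so the fall was measured between dim signals. MMP7 (matrilysin), a small enzyme without the hemopexin domain that is made by epithelial cells, had 4.02 and 4.26 in the knockdown arrays, against 4.42 and 4.48 in the control arrays. This was 1.24-fold lower (log2 change -0.31, SE 0.10, adjusted p = 0.0441), with all 4 arrays below their lower quartiles. Of its 4 probe sets 2 passed as lower, and the changes of the 4 lay between -0.19 and -0.32. The call was lost without the intensity trend (adjusted p = 0.0561) and with quantile normalization (adjusted p = 0.0563). It also did not pass without knockdown replicate 1 (-0.19), control replicate 1 (-0.34) or control replicate 2 (-0.28), under the same assumption.

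By probe set, 18 of the 26 passed as lower, 1 as higher and 7 did not pass, where 22.1% of all 49293 probe sets passed as lower and 27.0% as higher, 49.2% in all. MMP2, MMP14, MMP1 and MMP3 were lower at each of their 11 probe sets. MMP13, MMP7, MMP24 and MMP11 had probe sets on both sides of the threshold. The replicate gap seen for MMP2 was not shared by the family: of the 26 probe sets only those of MMP2, MMP10 and MMP14 included any that differed by over 0.5 between the knockdown arrays, and the MMP14 one ran the other way (-0.68, replicate 1 minus replicate 5).

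**Figure D2:**
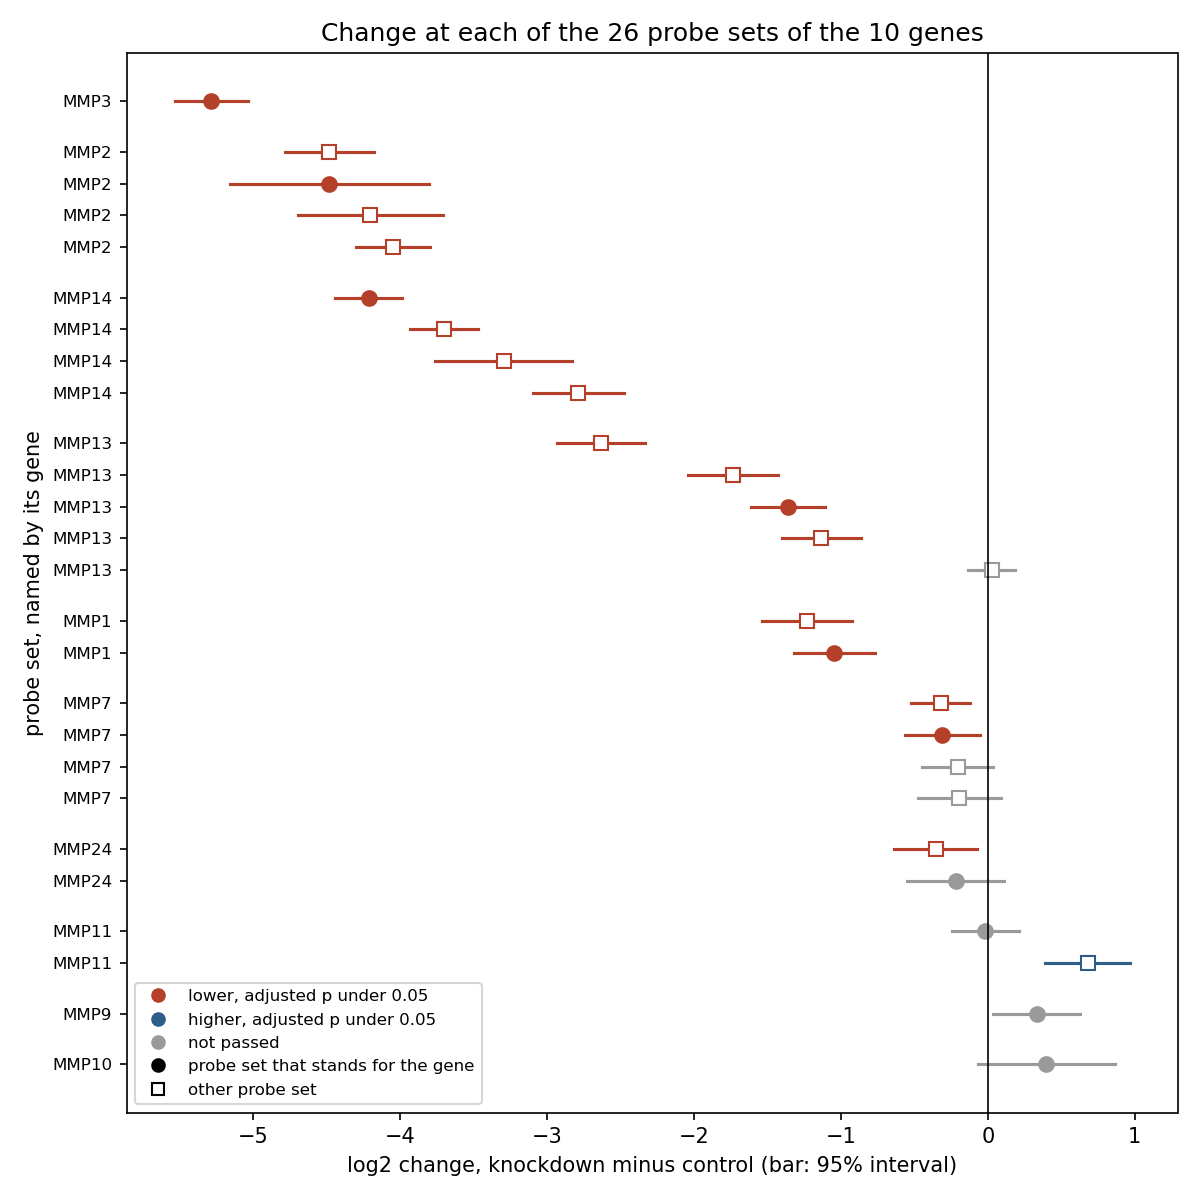
Log2 change (knockdown minus control, horizontal axis) of each of the 26 probe sets, one row each, grouped by gene. Markers are estimates, filled for the probe set that stands for the gene, and bars are 95% intervals from limma over 4 arrays. The 11 probe sets of MMP3, MMP2, MMP14 and MMP1 lie below 0 with their intervals, while those of MMP13 spread from -2.63 to 0.03 and those of MMP11 from -0.02 to 0.68.

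Of the 10 genes, 5 (MMP7, MMP10, MMP1, MMP3 and MMP13) belong to the metalloproteinase cluster on the long arm of chromosome 11, together with MMP20, MMP27, MMP8 and MMP12. The gene table of assembly GRCh38.p14 served only to order them. The changes differed along the cluster. The 4 genes at one end, MMP1, MMP3, MMP12 and MMP13, passed as lower (log2 changes -1.04, -5.28, -1.27 and -1.36). Of the other 5, MMP7 was lower (-0.31), and MMP20 (0.12), MMP27 (-0.12), MMP8 (-0.20) and MMP10 (0.40) did not pass. MMP20, MMP27 and MMP8 lay between 3.90 and 4.45 on every array, below the lower quartiles of the arrays (4.98 to 5.05). MMP7, and MMP10 in the control arrays, lay below these quartiles too. The floor of an array limits how far a fall from such a signal can go, though MMP7 passed as lower. Whether dimness or position matters was not tested. MMP12, the macrophage elastase, had 4.14 and 4.03 in the knockdown arrays, against 5.24 and 5.47 in the control arrays.

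The flanking genes went both ways, and no difference between them and the cluster was tested. Next to MMP13, DCUN1D5, a cofactor of cullin neddylation, was higher by 1.17 and DYNC2H1, a dynein heavy chain of cilia, by 1.65. On the other flank BIRC2, an inhibitor of apoptosis, was lower (-0.41), while YAP1, a transcriptional coactivator of the Hippo pathway, was higher by 0.31 and TMEM123 by 0.28. The calls of YAP1 and TMEM123 were lost without control replicate 2 (0.21 and 0.26). Their direction turned with another reading of the probe sets, to -0.05 with the mean for YAP1, and to -0.04 for TMEM123 without probe sets whose names mark shared probes.

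**Figure D3:**
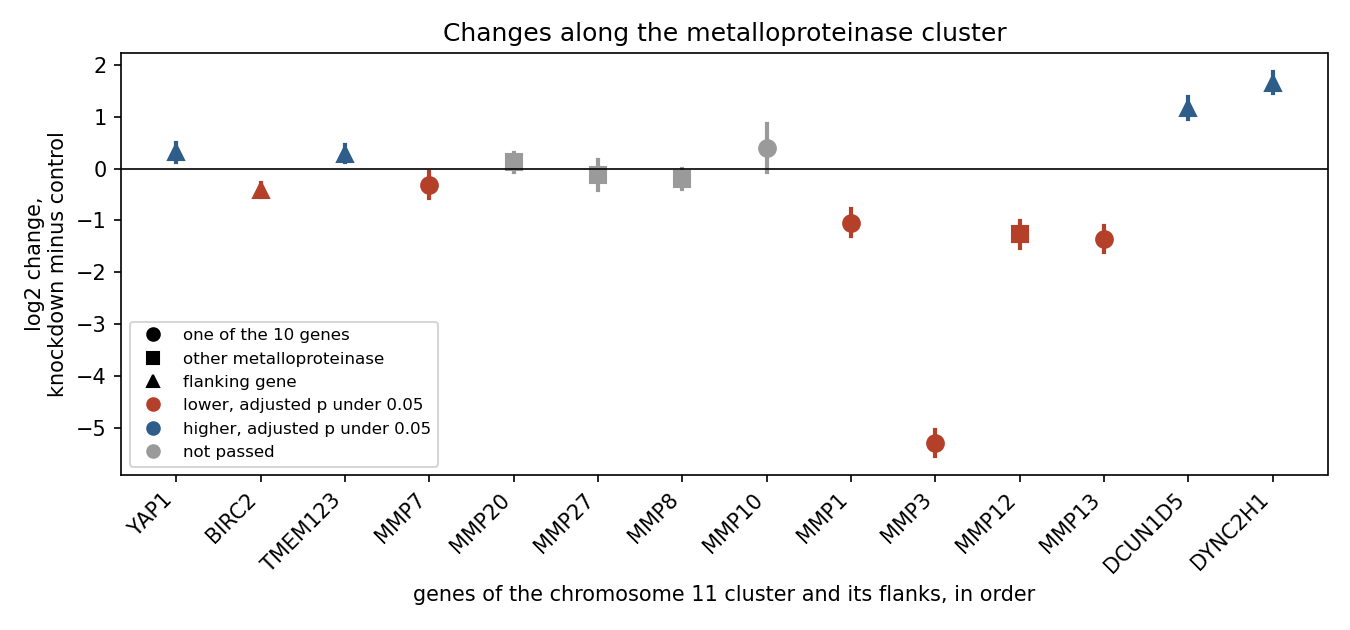
Log2 change (knockdown minus control, vertical axis) of the 9 metalloproteinase genes of the chromosome 11 cluster and of 5 flanking genes, in their order along the chromosome and not to scale. Points are estimates and bars 95% intervals from limma over 4 arrays. MMP3 stands lowest at -5.28 with MMP1, MMP12 and MMP13 beside it between -1.04 and -1.36, and the genes next to MMP13 lie above 0.

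Promoter sequences from RefSeq (GRCh38.p14) matched 5 of the 10 genes, MMP7, MMP10, MMP11, MMP14 and MMP24. They are shown for 4 genes: MMP7 and MMP10 of the cluster, both of small change, and the membrane-type genes MMP14, which fell, and MMP24, which did not pass. Each is the 250 bases before the gene's start, on the gene's own strand, and capitals mark 4 motifs searched on both strands. These were the AP-1 site TGANTCA, the ETS spelling CCGGAA, the GC box GGGCGG and the TATA box TATAAA, where N is any base.
MMP7 (chr11:102530748-102530997, minus strand): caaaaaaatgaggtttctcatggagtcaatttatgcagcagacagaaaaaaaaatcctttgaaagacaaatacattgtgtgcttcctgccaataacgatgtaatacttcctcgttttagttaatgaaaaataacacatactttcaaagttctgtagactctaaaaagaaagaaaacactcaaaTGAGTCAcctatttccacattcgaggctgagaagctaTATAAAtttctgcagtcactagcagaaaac
MMP10 (chr11:102780629-102780878, minus strand): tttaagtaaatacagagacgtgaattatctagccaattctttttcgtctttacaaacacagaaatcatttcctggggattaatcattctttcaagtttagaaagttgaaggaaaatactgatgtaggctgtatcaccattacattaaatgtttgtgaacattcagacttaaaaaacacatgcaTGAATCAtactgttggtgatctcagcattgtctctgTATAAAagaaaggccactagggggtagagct
MMP14 (chr14:22836335-22836584, plus strand): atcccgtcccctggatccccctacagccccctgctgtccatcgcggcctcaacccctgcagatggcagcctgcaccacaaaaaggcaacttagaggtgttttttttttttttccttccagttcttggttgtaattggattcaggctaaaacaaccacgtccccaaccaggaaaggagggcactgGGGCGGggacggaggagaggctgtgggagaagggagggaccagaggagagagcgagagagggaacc
MMP24 (chr20:35226440-35226689, plus strand): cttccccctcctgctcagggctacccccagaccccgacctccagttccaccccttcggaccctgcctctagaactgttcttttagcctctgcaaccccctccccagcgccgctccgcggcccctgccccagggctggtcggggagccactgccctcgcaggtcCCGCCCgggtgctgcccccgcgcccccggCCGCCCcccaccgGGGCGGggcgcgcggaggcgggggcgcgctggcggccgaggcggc

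MMP7 and MMP10 each held 1 AP-1 site, from 67 to 61 bases before the start in both, and 1 TATA box (from 30 to 25 and from 31 to 26 bases before the start). The AP-1 site was spelled TGAGTCA in MMP7 and TGAATCA in MMP10. MMP14 had 1 GC box and neither of those motifs, and MMP24 had 3 GC boxes, as did MMP11. The letters CCGGAA were found in 0 of the 5 promoters. They are only 1 spelling of an ETS site, and other spellings were not searched, so ETS sites may be present. Over 35116 promoters of the same length, 6.57% held the AP-1 site, 10.7% the TATA box, 42.6% the GC box and 14.5% the letters CCGGAA. The G and C content of the windows was 33.6% for MMP7 and 34.4% for MMP10, 56.8% for MMP14, 73.2% for MMP11 and 77.6% for MMP24. A match is a run of letters and not a measured site. With no promoter here for MMP1, MMP2, MMP3, MMP9 or MMP13, any link of these letters to the changes was not tested.

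Of 12 other metalloproteinase genes measured, 2 were lower, 0 were higher and 10 did not pass in the limma fit (3 lower and 0 higher at an unadjusted p under 0.05), with a median log2 change of -0.13. By the adjusted p, 21.3% of all genes were lower and 29.5% higher. MMP16 (MT3-MMP), a membrane-type relative of MMP14, had 5.06 and 5.09 in the knockdown arrays, against 7.93 and 8.27 in the control arrays, and was 8.16-fold lower (log2 change -3.03, adjusted p = 3.17e-06). Its mean over 6 probe sets gave -2.26. Besides MMP12, given above, no other gene of this list passed. MMP19 did not pass by its brightest probe set (-0.25), but 2 of its other probe sets were lower (-1.34 and -1.31).

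The inhibitors fell in part. Of 6 genes 3 were lower and 1 was higher, beside 21.3% lower and 29.5% higher of all genes. TIMP3, which stays bound to the matrix, had 7.13 and 7.01 in the knockdown arrays, against 12.48 and 12.47 in the control arrays, a 42.3-fold fall (log2 change -5.40, or -4.81 without probe sets whose names mark shared probes). TIMP2, which takes part in the activation of pro-MMP2 by MMP14, fell by 1.25 on the log2 scale, and TIMP1 fell by 0.78. TIMP4 rose by 0.83, with 6.77 and 6.26 in the knockdown arrays against 5.62 and 5.74 in the control arrays. The membrane-anchored inhibitor RECK (-0.34) and the plasma inhibitor A2M (-0.16) did not pass, though another RECK probe set was lower (-0.91, adjusted p = 6.68e-04 over all probe sets). The fall of TIMP2 stood beside larger falls of MMP2 and MMP14.

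Of 8 activating proteases and their partners, 4 were lower and 2 higher, beside 21.3% lower and 29.5% higher of all genes. Of the 4 genes of the plasmin branch 3 were lower. PLAU, the urokinase that makes plasmin, had a log2 change of -6.001 (-5.26 for its probe sets averaged), its receptor gene PLAUR one of -3.30, and PLAT, the tissue plasminogen activator, one of -0.82. PLG, the precursor of plasmin itself, did not pass (-0.19). In the convertase branch PCSK5 rose by 2.31 and PCSK6 by 2.15 (1.34 for its probe sets averaged). PCSK7 fell by 0.36. FURIN, the convertase best known for activating MMP14 and MMP11, did not pass, with 9.14 and 8.97 in the knockdown arrays against 9.01 and 9.01 in the control arrays.

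For the next 2 lists too, the share of all genes was 21.3% lower and 29.5% higher. Transcription factors known from metalloproteinase promoters were lower in 12 of 14 genes and higher in 0, with a median log2 change of -0.46. The counts were the same at an unadjusted p under 0.05 in the limma fit. With an array left out 8 to 12 were lower, and with the 1.5-fold cut-off of the study 6 were. ETV5, an ETS factor of the PEA3 group, had 6.25 and 5.40 in the knockdown arrays, against 10.90 and 10.83 in the control arrays (log2 change -5.04, or -3.74 for its probe sets averaged and -3.44 without those that mark shared probes). The AP-1 subunit gene FOSL1 was at -4.71 (-3.40 and -3.59 under the same choices) and FOSL2 at -2.86. RUNX2, which drives MMP13 in bone, was at -2.67 (-1.55 averaged). JUND (-0.12) and RELA (0.10) did not pass. Inducing ligands were lower in 8 of 10 genes and higher in 0 (9 and 0 at an unadjusted p under 0.05), with a median of -0.70. Among the 8, TNF (1.41-fold) and BSG (1.18-fold) fell by less than the 1.5-fold cut-off of the study. The largest falls were those of IL6 at -5.97 (-3.97 for its probe sets averaged), TGFB2 at -2.73 (-1.45 averaged), FGF2 at -1.77 and TGFB1 at -1.03.

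Partners at the cell surface and matrix substrates fell with them. Of 7 surface partners 6 were lower and 0 higher, beside 21.3% lower and 29.5% higher of all genes, with a median of -1.50. The counts were the same at an unadjusted p under 0.05. ITGB3 did not pass by its brightest probe set (-0.24). Its other probe sets lay between -0.27 and -1.34, and some of them passed as lower. CD44, which docks MMP9 and MMP14 at the cell surface, was at -3.10, the collagen receptor gene ITGA2, whose protein binds pro-MMP1, at -2.80, ITGAV, part of an integrin that binds MMP2, at -1.62 and SDC1, a proteoglycan shed by MMP7, at -1.50. Of 10 matrix substrates 8 were lower, 0 were higher (again the same counts at an unadjusted p under 0.05), and the median was -4.63. COL1A2 and COL1A1, the chains of type I collagen, were at -8.37 and -6.42 (-7.54 and -5.51 for their probe sets averaged), fibronectin (FN1) at -6.19, and decorin (DCN) at -6.84. The DCN change was -4.66 averaged and -0.88 without probe sets that mark shared probes. The -0.88 came from a single probe set that was dim in the control arrays too (5.32 and 5.30). Elastin (ELN, -0.09) and aggrecan (ACAN, 0.01) did not pass. With only 2 groups of arrays, any list that differs between them sets apart the same arrays as the mesenchymal markers do. A link between these lists and those markers was not tested. FN1 and COL1A2, 2 of those markers, are also counted here.

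**Figure D4:**
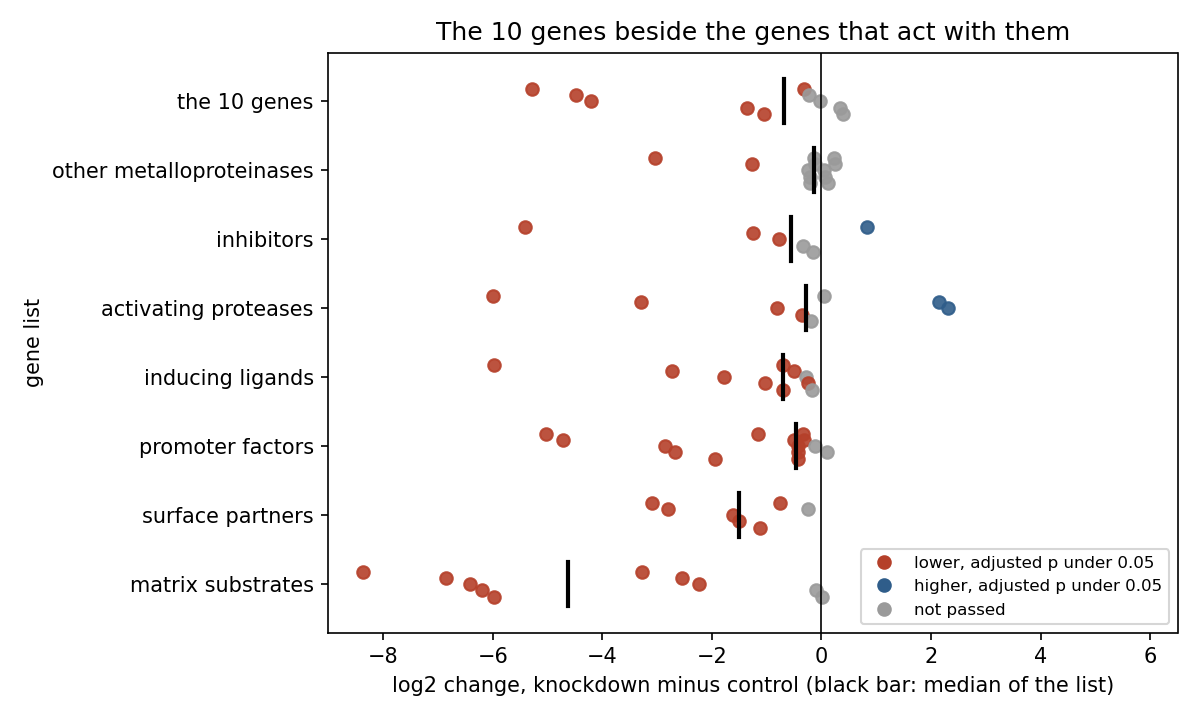
Log2 change (knockdown minus control, horizontal axis) of the 10 genes and of 7 lists of genes that act with them, one row a list. Each point is a gene, spread vertically only to be seen, and the black bar is the median of the list. The matrix substrates have the lowest median (-4.63), and genes that passed as higher appear only for inhibitors (TIMP4) and activating proteases (PCSK5 and PCSK6).

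By the distance between profiles centred on their own means over the 4 arrays, the genes most like MMP3 were CXCL2, a neutrophil attractant (distance 0.082 log2 units), PEG10, an imprinted gene derived from a retrotransposon (0.084), and TIMP3 (0.159). CXCL2 had 4.94 and 4.998 in the knockdown arrays, against 10.25 and 10.17 in the control arrays. Likeness over 4 arrays in 2 groups says little more than that the size of the fall is similar.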

How the data were processed

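RNA of Hs578T cells was read on 4 Affymetrix PrimeView arrays. The deposited table holds log2 signal values that the authors had normalized with RMA, per the submitters' processing notes, with version and steps not given in the sources used here. RMA values carry no detection call, and precision is limited by the number of arrays. The array medians lay between 6.76 and 6.80. Of 49293 probe sets 44988 had a single gene symbol in the platform annotation, and 1832 had several and 2473 none, which were not named. Each of 18132 genes was represented by its brightest probe set over all 4 arrays. The test was limma 3.58.1 under R 4.3.3 (lmFit, eBayes with an intensity trend, two-sided, Benjamini-Hochberg over all genes, threshold 0.05), with 2 residual degrees of freedom and a prior of 4.83. A fit over all probe sets gave the values by probe set. An exact permutation test of 2 arrays against 2 cannot give a p below 0.333. The fit was tested on simulated data. Named genes were the 10 metalloproteinases, ELK3, up to 4 genes of each list by size of change among those that passed, and the 3 genes nearest to the most changed metalloproteinase. Exceptions of a list that the text names were picked with their values in view. The members and lists were chosen with earlier results of these data known. Some listed genes were not analysed here. Figures used matplotlib 3.10.9 and Python 3.11.15.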

Additional observations from a re-analysis of the deposited data

How the results depend on the processing

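The falls of MMP3, MMP2, MMP14, MMP13 and MMP1 kept their direction and their call in each of the 11 or 12 alternatives that could be run for each, with a largest adjusted p of 3.27e-04. In the 4 of these that leave out an array, the group with 1 array is assumed to vary like the other. The spread then comes from 1 pair of arrays and from limma's moderation over all genes, so those calls are weak evidence. Alternatives that change only the variance model, the genes fitted or the threshold reuse the same estimate, so they could not change its direction. The same holds for the mean of probe sets for MMP3, which has only 1. Those not run were MMP3 without probe sets whose names mark shared probes and MMP1 without dim genes, since no value was left. With each array left out in turn, MMP3 lay between -5.34 and -5.22, MMP2 between -4.999 and -3.96, MMP14 between -4.32 and -4.11, MMP13 between -1.41 and -1.30 and MMP1 between -1.13 and -0.96, and the number of the 10 genes that were lower was 5 or 6. It was 7 with the mean of all probe sets, where MMP24 passed at -0.29. The number higher, 0 in the reported fit, was between 0 and 1 with an array left out (MMP9 without knockdown replicate 1 or control replicate 2, MMP10 without knockdown replicate 5), 1 without the intensity trend and 1 with quantile normalization (MMP9), and 2 with the mean of all probe sets (MMP9 and MMP11, with MMP11 turning to 0.33 because its other probe set enters). Member probe sets that were lower numbered 11 without names that mark shared probes and 11 without dim probe sets, both of which test fewer of them (19 and 13). Those higher numbered 0 without such names, 2 without the intensity trend, 2 with quantile normalization and between 1 and 2 with an array left out. Without dim genes, 1 other metalloproteinase was lower and 0 inhibitors were higher, since MMP12 and TIMP4 were left out. By the study's own selection, over 1.5-fold at an unadjusted p under 0.05, 2284 genes were lower and 3469 higher, 6 promoter factors were lower, and 0 cluster neighbours were lower and 2 higher. Cluster neighbours that were higher numbered 2 with the mean of probe sets, and between 2 and 4 with an array left out. YAP1 turned to -0.0492 with that mean and TMEM123 to -0.0364 without names that mark shared probes; the cause was not tested. No paired analysis was possible because the groups share only 1 replicate number.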
